A study of Mus musculus with 17 samples.

Results

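The 10 genes described here are the integrin genes Itga1, Itga5, Itga8, Itga11, Itgav, Itgb1, Itgb3, Itgb5 and Itgb8, together with the integrin-like gene Itgbl1, in cardiac fibroblasts (CFs) during the first week after myocardial infarction. They were chosen by symbol, the integrin genes as receptors for collagen, fibronectin and latent TGF-β. Each of the 10 corresponded to 1 of the 31053 genes listed in the count table. Where the text below speaks of the 10 integrin genes, Itgbl1 is included. All CFs came from C57BL/6 mice aged 8 to 10 weeks that carried GFP under collagen type I alpha 1 control (genotype Collagen1a1-GFP+) and had undergone infarction by ligation of the left anterior descending coronary artery. GFP+/CD31-/CD45- cells were sorted at 1 to 6 days post-infarction (dpi), giving 17 libraries: 3 for each of 1, 2, 4 and 6 dpi, 4 for 3 dpi and 1 for 5 dpi. The GFP reporter selects cells with an active collagen promoter, uninjured hearts were not analysed here, and the labels do not say whether the libraries of a day came from separate animals. The study's methods call them biological replicates without naming their animals, and the p-values measure the spread between these libraries.

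Integrins are cell surface receptors made of 1 α and 1 β subunit that link the extracellular matrix to the actin cytoskeleton. In fibroblasts, β1 pairs with the collagen-binding subunits α1 and α11 and with the fibronectin-binding subunit α5. αv pairs with β1, β3, β5 or β8, and several of these dimers bind the latency peptide that holds TGF-β inactive, which places them upstream of myofibroblast formation and scarring.

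Total counts per library ranged from 8021815 to 22029938 (median 14123952), so that 3 counts, the limit that a count of 0 allows, corresponded to a CPM (library-scaled count) of 0.136 to 0.374. Levels of the integrin and ligand genes below are CPM after TMM scaling, a correction for library composition with factors of 0.838 to 1.12. Levels of cell type markers, single or summed, are CPM by total counts without this correction. The libraries are made from the 3′ ends of poly-A RNA. Levels were compared between days for 1 gene at a time, and levels of different genes were not compared. The fibroblast marker list summed to between 12213 and 38657 CPM in every library. Of the 2 markers sorted against, Ptprc (CD45) reached at most 3.09 CPM and was at 0 in 12 libraries, and Pecam1 (CD31) reached at most 12.8 CPM. Other markers of these cell types were higher. The leukocyte list summed to 8.21 to 239 CPM, with Lyz2 at up to 138 CPM. The endothelial list summed to 16.9 to 91.5 CPM, with Tek at up to 45.5 CPM. The libraries also differed in ways that follow the days. Counts from mitochondrial genes made up 1.22 to 2.04% of 10 libraries, namely those of 1, 2 and 4 dpi and 6 dpi replicate 3. They made up only 0.321 to 0.782% of the other 7, namely those of 3 and 5 dpi and 6 dpi replicates 1 and 2. The female-expressed transcript Xist exceeded the Y-linked genes in all libraries of 4 and 6 dpi and in 1 dpi replicate 1, and the reverse held for the other 10 libraries. The split was less sharp at 1 dpi, with 1670 Xist and 84 Y-linked counts in replicate 1 and 461 and 1455 in replicate 2. Libraries of 4 and 6 dpi held at most 10 Y-linked counts. The descriptions of the 3 dpi samples also follow another naming pattern than those of all other days. The labels do not say whether this marks a batch. A comparison between 3 and 4 dpi therefore cannot be told apart from these differences. Nor can one between 2 and 3 dpi be told apart from those in mitochondrial share and naming. The libraries of 1 and 6 dpi differ in part in Xist and in mitochondrial share. Xist was the higher in all of 6 dpi but only in replicate 1 of 1 dpi. All of 1 dpi but only replicate 3 of 6 dpi had the higher mitochondrial share. Because the samples are sorted bulk populations, fewer cells expressing a gene and less RNA per cell cannot be told apart.

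All 10 genes passed the filter on low counts and entered the test with 14030 genes in total. Over the whole time course, 3 of the 10 varied between days at an adjusted p under 0.05 by edgeR (quasi-likelihood test, p-values adjusted by Benjamini-Hochberg), against 15.0% of all genes tested. These were Itgb5, Itga11 and Itgb3, and 6 of the 10 had an unadjusted p under 0.05. The median distance between the highest and the lowest day was 1.12 (log2) for the 10 genes and 1.14 for all genes. The panels of levels by library show the late rise of Itgb5 and Itga11, the low values of Itga5 at 6 dpi and of Itgav at 3 dpi, and the wide spread of Itga8, Itgb8 and Itgbl1.

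**Figure D1:**
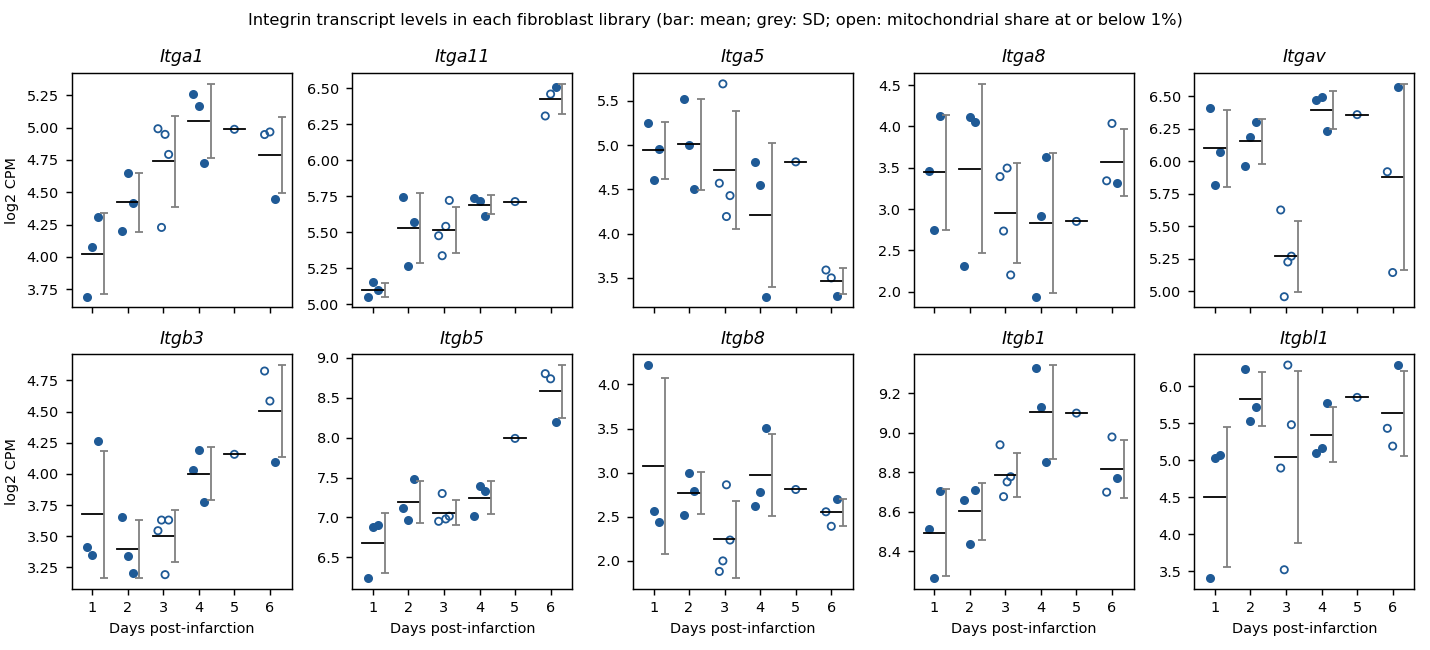
Levels of the 10 genes as log2 CPM (y axis) against days post-infarction (x axis), 1 point per library, with the mean of each day as a black bar and its SD in grey; open points are the 7 libraries whose mitochondrial share is at or below 1%. For Itgb5 and Itga11 the 3 libraries of 6 dpi lie above all 14 earlier libraries, and for Itgav the 4 libraries of 3 dpi lie below those of 1, 2, 4 and 5 dpi.

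Among the collagen receptors, Itga11 encodes α11, a receptor for fibrillar collagens that is largely restricted to mesenchymal cells (GRCm38 chr9:62677826-62783982, plus strand). Its level was 33.05, 35.4 and 34.1 CPM in the libraries of 1 dpi, 53.5, 38.3 and 47.5 CPM at 2 dpi, and 44.3, 40.3, 46.4 and 52.6 CPM at 3 dpi. It was 53.2, 52.4 and 48.8 CPM at 4 dpi, 52.3 CPM in the library of 5 dpi, and 79.0, 87.8 and 90.8 CPM at 6 dpi. Itga11 was thus lowest at 1 dpi, where all libraries lay below all others, overlapped between 2, 3, 4 and 5 dpi, and was highest at 6 dpi, where each library exceeded all 14 earlier ones. The same separation of the 6 dpi libraries above all others held for 2.63% of the genes tested, and among the 10 genes it held for Itga11 and Itgb5. The variation of Itga11 over the time course had an adjusted p of 0.0025. From 1 to 6 dpi its level rose 2.51-fold (log2 fold change 1.33, SE 0.21, adjusted p = 3.9e-04). The step from 4 to 6 dpi was 1.67-fold (log2 fold change 0.74, SE 0.20, adjusted p = 0.083), which did not pass over all genes although the groups did not overlap, as was the case in this direction for 11.3% of genes. It passed with DESeq2 (adjusted p = 0.0061) and with 3 dpi replicate 2 left out (adjusted p = 0.028).

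Itga1 encodes α1, the other main collagen-binding subunit in these cells, with a preference for network-forming collagens (GRCm38 chr13:114953096-115101964, minus strand). The levels of Itga1 were 12.8, 16.7 and 19.7 CPM at 1 dpi, 18.2, 25.0 and 21.2 CPM at 2 dpi, and 31.7, 18.6, 30.7 and 27.6 CPM at 3 dpi. At later days they were 38.2, 35.7 and 26.3 CPM at 4 dpi, 31.6 CPM at 5 dpi, and 30.7, 31.1 and 21.7 CPM at 6 dpi. Apart from 3 dpi replicate 2, the libraries of 3 to 5 dpi were above all libraries of 1 and 2 dpi. The mean over 3, 4 and 5 dpi was 1.63-fold above that over 1 and 2 dpi (log2 fold change 0.70, SE 0.19, adjusted p = 0.026). Itga1 was the only one of the 10 genes to pass in this comparison, in which 7.48% of all genes passed, and 4 of the 10 had an unadjusted p under 0.05. The call was lost among those libraries in which Y-linked counts exceeded Xist (0.57, adjusted p = 0.16). It was lost by leaving out any of 1 dpi replicate 1 (adjusted p = 0.072), 1 dpi replicate 2 (0.056), 2 dpi replicate 1 (0.074), 2 dpi replicate 3 (0.055) or 4 dpi replicate 1 (0.052). With only libraries of a mitochondrial share above 1%, which leaves 4 dpi as the only later day, the difference was 0.82 (adjusted p = 0.029). The summed mural cell markers also differed between these groups of days: they were 129 to 268 CPM at 3 to 5 dpi and 64.8 to 115 CPM at 1 and 2 dpi, and 5 of the 8 listed were called higher in this comparison. Their part in the difference was not tested. Part of an exon of Itga1 overlaps the predicted gene Gm49395 on the same strand, and how reads there were assigned is not given in the sources used here.

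The 250 bases before the RefSeq start of Itga11 are shown with those of Itgb5 and Itga5, because these 3 genes carried the differences between 1 and 6 dpi. RefSeq sequences (GRCm38.p6) were at hand for 9 of the 10 genes, Itgb3 being the exception. Capitals mark the GC box, searched as GGGCGG on both strands. Within a window of 300 bases, from 250 before to 50 after the start, it occurred in 35.7% of 32851 windows.
Itga11, chr9:62677605-62677854, plus strand: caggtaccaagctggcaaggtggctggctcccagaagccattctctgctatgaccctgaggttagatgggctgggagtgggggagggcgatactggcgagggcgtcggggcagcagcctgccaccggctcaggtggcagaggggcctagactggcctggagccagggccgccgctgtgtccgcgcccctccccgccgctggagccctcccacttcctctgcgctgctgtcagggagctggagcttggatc
Itgb5, chr16:33829415-33829664, plus strand: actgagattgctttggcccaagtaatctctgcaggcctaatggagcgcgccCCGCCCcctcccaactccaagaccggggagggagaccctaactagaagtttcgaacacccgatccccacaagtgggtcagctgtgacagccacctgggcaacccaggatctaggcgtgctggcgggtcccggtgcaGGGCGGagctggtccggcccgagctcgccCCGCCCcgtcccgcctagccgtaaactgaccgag
Itga5, chr15:103366792-103367041, minus strand: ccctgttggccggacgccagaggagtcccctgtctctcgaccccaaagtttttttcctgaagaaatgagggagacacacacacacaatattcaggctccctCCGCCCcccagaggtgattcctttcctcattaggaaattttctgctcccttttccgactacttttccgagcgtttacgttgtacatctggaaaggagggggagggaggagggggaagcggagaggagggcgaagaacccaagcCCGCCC
The stretch of Itgb5 held 3 GC boxes, that of Itga5 held 2, and that of Itga11 held none, with a share of G and C of 65.2, 55.6 and 68.4%, respectively. The AP-1 letters TGANTCA (7.81% of windows), the TATA letters TATAAA (13.6%), the RUNX letters TGTGGT (16.8%) and the SMAD letters GTCTAGAC (0.213%) occurred in the window of none of the 9 genes. The TEAD letters GGAATG (14.7%) occurred only in that of Itgb1. A match describes the sequence and does not show a binding site, and Itga11 and Itgb5, which both were highest at 6 dpi, shared none of these letters in their windows.

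Itga5 encodes α5, which with β1 forms the main receptor for fibronectin and is needed for the assembly of fibronectin fibrils (GRCm38 chr15:103344286-103366763, minus strand). Its level was 37.98, 24.3 and 30.8 CPM at 1 dpi, 45.8, 31.9 and 22.5 CPM at 2 dpi, and 23.6, 51.5, 18.1 and 21.4 CPM at 3 dpi. It was 27.9, 23.2 and 9.61 CPM at 4 dpi, 27.9 CPM at 5 dpi, and 11.9, 11.2 and 9.68 CPM at 6 dpi. The libraries of 6 dpi were below all those of 1, 2, 3 and 5 dpi, but 4 dpi replicate 3 was lower still, and 3 dpi replicate 2 was the highest of the 17. From 1 to 6 dpi the level of Itga5 fell 2.84-fold (log2 fold change -1.50, SE 0.40, adjusted p = 0.020, groups not overlapping). This direction passed in 5.21% of all genes, and the groups did not overlap in this direction in 15.3%. The call was lost without 1 dpi replicate 1 (adjusted p = 0.077), 6 dpi replicate 1 (0.060) or 6 dpi replicate 2 (0.068), and with only libraries of a mitochondrial share above 1%, among them 1 of 6 dpi (-1.66, adjusted p = 0.15). Between 4 and 6 dpi the difference was -0.90 (log2, SE 0.40, adjusted p = 0.22), and over the whole time course the adjusted p was 0.065. The time course passed with DESeq2 (adjusted p = 0.020), without the 5 dpi library (0.040), without those of 3 dpi (0.026) and when genes were kept from 1 count on (7.9e-05).

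Fibronectin itself, encoded by Fn1, differed in the other direction between 1 and 6 dpi, but not at each step between. From 2 to 3 dpi Fn1 rose by 2.25 (log2, adjusted p = 0.0024 by edgeR), where Itga5 differed by -0.22 (0.81). From 4 to 6 dpi both were lower and neither was called (Fn1 -0.62, adjusted p = 0.31, Itga5 -0.90, 0.22). From 1 to 6 dpi Fn1 rose by a log2 fold change of 2.92 (SE 0.36, adjusted p = 4.4e-05) while Itga5 was lower. Counts of Itga11 per 100 counts of Itga5 in the same library were 87.0 to 146 at 1 dpi, 78.1 to 508 over 2 to 5 dpi, and 665 to 938 at 6 dpi, so that no library before 6 dpi reached this range. These ratios compare libraries and not the abundance of the 2 subunits.

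Itgb5 encodes β5, which pairs with αv to bind vitronectin and the latency peptide of TGF-β (GRCm38 chr16:33829665-33949338, plus strand). Its level was 75.6, 118 and 120.0 CPM at 1 dpi, 139, 126 and 179 CPM at 2 dpi, and 124, 158, 126 and 129 CPM at 3 dpi. It was 129, 169 and 161 CPM at 4 dpi, 254 CPM in the library of 5 dpi, and 447, 427 and 295 CPM at 6 dpi. The libraries of 2, 3 and 4 dpi overlapped, all 3 of 1 dpi lay below all others, the 5 dpi library exceeded every earlier one, and the 6 dpi libraries exceeded the 5 dpi library. On the log2 scale, the mean and SD of the 3 libraries were 6.68 ± 0.38 at 1 dpi, 7.25 ± 0.20 at 4 dpi and 8.58 ± 0.33 at 6 dpi.

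Itgb5 was the member with the largest rise between any of the days tested. It rose 3.73-fold from 1 to 6 dpi (log2 fold change 1.90, SE 0.26, adjusted p = 1.3e-04), in a comparison where 12.1% of genes were called and 6.91% were called higher. The 2 groups did not overlap in this direction for Itgb5, Itga11, Itga1 and Itgbl1, nor for 17.1% of all genes. Of these members, Itga1 (adjusted p = 0.070) and Itgbl1 (0.19) were not called. From 4 to 6 dpi Itgb5 rose 2.55-fold (1.35, SE 0.25, adjusted p = 0.034) and was the only one of the 10 called, against 0.513% of all genes. The rise from 1 dpi passed in each of the 16 fits that left out 1 library (adjusted p from 2.8e-05 to 0.0018) and with only the libraries of a mitochondrial share above 1% (1.51, adjusted p = 0.015). That fit keeps 6 dpi replicate 3 as the lone library of its day and assumes that it varies like the other days. The rise from 4 dpi was lost without 4 dpi replicate 1 (adjusted p = 0.17), 4 dpi replicate 2 (0.16), 6 dpi replicate 1 (0.12) or 6 dpi replicate 2 (0.18), with log2 fold changes of 1.24 to 1.43. It was also lost with only the libraries of a mitochondrial share above 1% (0.97, adjusted p = 0.98) and with only the libraries of 4 and 6 dpi (1.35, adjusted p = 0.11). Among libraries in which Y-linked counts exceeded Xist, which include none of 4 or 6 dpi, neither Itgb5 (adjusted p = 0.21) nor Itga11 (adjusted p = 0.61) varied detectably over the days.

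Relative to Itgb1, the common β subunit, the counts of Itgb5 per 100 counts of Itgb1 were 20.1 to 42.9 in the libraries of 1 to 4 dpi and 46.4 in that of 5 dpi. They were 67.4 to 107 at 6 dpi, with a mean of 86.5 ± 20.1 (SD, n = 3). The plot of ratios within libraries shows the same separation of 6 dpi for Itga11 over Itga5, genes called in opposite directions between 1 and 6 dpi. Ratios to Itgav and to Itga1 did not separate 6 dpi. Counts of Itgb5 per 100 counts of Itgav were 309 to 1214 at 6 dpi and 251 to 510 at 3 dpi. Those of Itga11 per 100 counts of Itga1 were 257 to 419 at 6 dpi and 153 to 294 at 2 dpi.

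**Figure D2:**
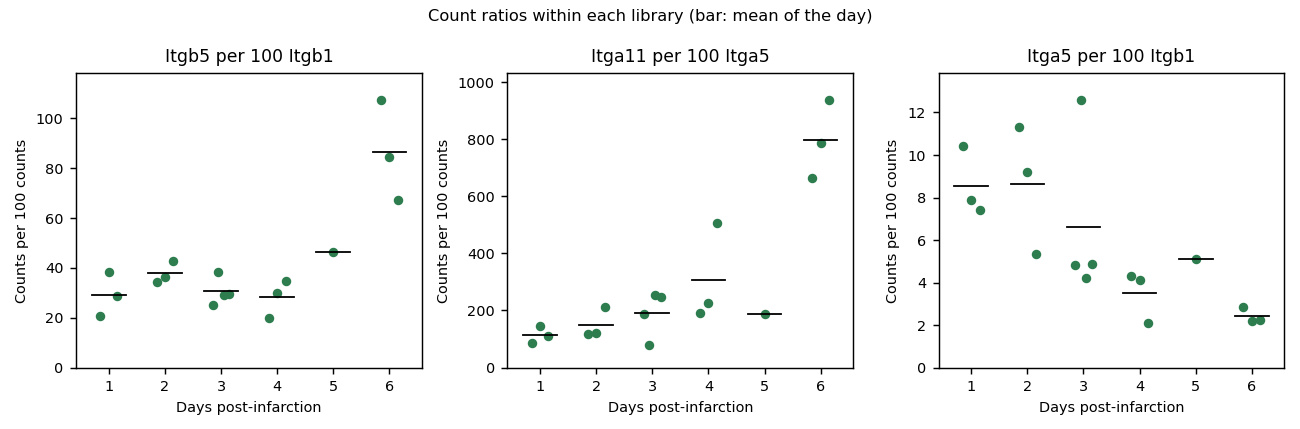
Counts of 1 gene per 100 counts of another in the same library (y axis, starting at 0) against days post-infarction (x axis), 1 point per library with the mean of each day as a bar. Itgb5 per 100 Itgb1 was 67.4 to 107 at 6 dpi and at most 46.4 before, Itga11 per 100 Itga5 was 665 to 938 at 6 dpi and at most 508 before, and for Itga5 per 100 Itgb1 the libraries of 6 and 4 dpi overlap.

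Markers of other cell types also moved between the early and the late libraries. The summed cardiomyocyte markers were 104.8 to 228 CPM at 6 dpi against 10.6 to 85.9 CPM in all earlier libraries, and 7 of the 9 listed were called higher at 6 than at 1 dpi, as were 6.91% of all genes. The summed mural cell markers were 208 to 225 CPM at 6 dpi, 268 CPM at 5 dpi and 64.8 to 115 CPM at 1 and 2 dpi, with 5 of 8 called higher at 6 than at 1 dpi. The mesothelial markers summed to 71.4 to 502 CPM at 6 dpi and 14.6 to 220 CPM before, with none of 6 called. Their part in the rise of Itgb5 and Itga11 was not tested.

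Itgav encodes αv, the partner of β5 and of β3 and β8 (GRCm38 chr2:83724397-83806916, plus strand). Its level was 84.7, 56.2 and 67.2 CPM at 1 dpi, 62.4, 72.7 and 79.0 CPM at 2 dpi, and 49.2, 30.9, 37.2 and 38.4 CPM at 3 dpi. It was 88.6, 90.0 and 74.9 CPM at 4 dpi, 82.0 CPM at 5 dpi, and 60.4, 35.2 and 95.2 CPM at 6 dpi. The 4 libraries of 3 dpi lay below those of 1, 2, 4 and 5 dpi, while 6 dpi spanned nearly the full range, with 1 library as low as those of 3 dpi and another the highest of all. From 3 to 4 dpi Itgav rose 2.17-fold (log2 fold change 1.12, SE 0.27, adjusted p = 0.032), the only one of the 10 called, against 2.71% of all genes. The groups did not overlap, as for 8.64% of genes in this direction. From 2 to 3 dpi the difference was -0.87 (SE 0.27, adjusted p = 0.083), with the groups apart as in 8.95% of genes in this direction. None of the 10 genes was called between 2 and 3 dpi by edgeR, against 2.94% of all genes. Itgav was the 1 with an unadjusted p under 0.05, and it was called by DESeq2 (adjusted p = 0.037) and without 6 dpi replicate 2 (adjusted p = 0.045) or replicate 3 (0.039). The rise from 3 to 4 dpi was lost without 3 dpi replicate 3 (adjusted p = 0.068), 3 dpi replicate 4 (0.070), 4 dpi replicate 1 (0.11) or 4 dpi replicate 2 (0.12), and with only the libraries of 3 and 4 dpi (0.055).

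The level of Itgav was lowest in libraries of a low mitochondrial share, but not in all of these. It was 56.2 to 95.2 CPM in the 10 libraries with a share above 1%. Of the 7 others it was 30.9 to 49.2 CPM in those of 3 dpi, and 35.2, 60.4 and 82.0 CPM in 6 dpi replicates 2 and 1 and the 5 dpi library. Every library of 3 dpi had the lower share and every library of 2 and 4 dpi the higher one, so the low level at 3 dpi and this difference between libraries cannot be told apart. With only the libraries above 1%, 1 of them at 6 dpi, the difference in Itgav between 6 and 1 dpi was 0.47 (log2, adjusted p = 0.49).

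**Figure D3:**
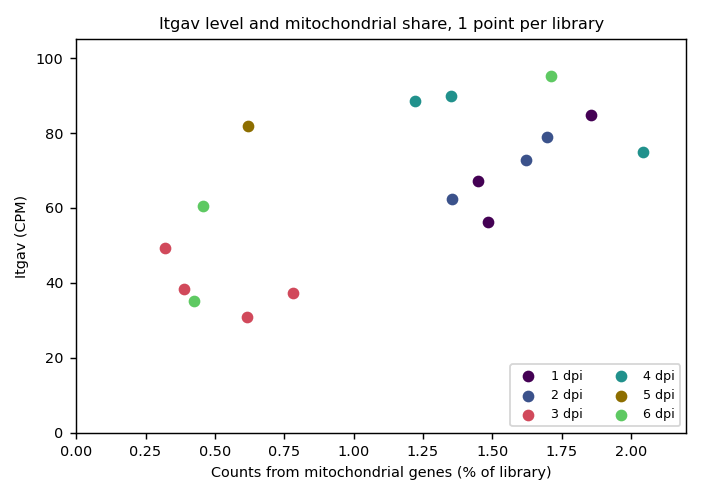
Itgav level in CPM (y axis) against the share of counts from mitochondrial genes (x axis, % of the library), 1 point per library, coloured by day. The 4 libraries of 3 dpi lie at 0.321 to 0.782% and at most 49.2 CPM, the 10 libraries above 1% at 56.2 CPM or more.

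Itgb3 encodes β3, the partner of αv in a receptor for vitronectin, fibronectin and osteopontin, which is also a platelet integrin subunit with αIIb (GRCm38 chr11:104608000-104670476, plus strand). Its level was 10.5, 10.1 and 19.1 CPM at 1 dpi, 9.06 to 12.5 CPM at 2 dpi, 8.995 to 12.2 CPM at 3 dpi and 13.6 to 18.2 CPM at 4 dpi. It was 17.7 CPM at 5 dpi and 28.2, 23.9 and 16.98 CPM at 6 dpi. The highest levels were in 6 dpi replicates 1 and 2, but replicate 3 overlapped 4 and 5 dpi and 1 library of 1 dpi. Itgb3 varied over the time course (adjusted p = 0.048, highest minus lowest day 1.13 on the log2 scale), a call that was lost in 12 of the 16 fits that left out 1 library, up to an adjusted p of 0.20 without 6 dpi replicate 1. It was also lost within libraries with a mitochondrial share above 1% (adjusted p = 0.58), among libraries in which Y-linked counts exceeded Xist (0.55), without those of 3 dpi (0.11) and when genes were kept from 1 count on (0.053). Between 1 and 6 dpi the difference was 0.80 (SE 0.29, adjusted p = 0.080). The platelet markers summed to 16.4 to 23.2 CPM at 6 dpi and to 18.4 to 104 CPM before. Gp1ba was at 0 in 16 of the 17 libraries, whereas Pf4 was at 12.3 to 101 CPM in every library. Itga2b, the αIIb partner of β3 in platelets, was higher at 6 than at 1 dpi (log2 fold change 1.42, SE 0.43, adjusted p = 0.035). The part of platelets in the level of Itgb3 was not tested.

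Itgb8 encodes β8, the αv partner that activates latent TGF-β without a link of its tail to the actin cytoskeleton (GRCm38 chr12:119158022-119238802, minus strand). It was at 18.5 CPM in 1 dpi replicate 1 and at 3.55 to 11.2 CPM in the other 16 libraries, with 40 to 148 counts each. No comparison called Itgb8, and over the time course its adjusted p was 0.44. At 6 against 1 dpi the difference was -0.75 (log2, SE 0.45, adjusted p = 0.29), and it turned to 0.046 without 1 dpi replicate 1.

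Itgb1 encodes β1, which pairs with α1, α5, α8, α11 and αv (GRCm38 chr8:128685654-128733200, plus strand). With 2884 to 9907 counts per library, it varied least of the 10 genes, its highest level being 2.09 times its lowest. The levels were 308 to 417 CPM at 1 dpi, 347 to 419 at 2 dpi, 409 to 491 at 3 dpi, 463 to 643 at 4 dpi, 549 at 5 dpi and 416 to 505 at 6 dpi. Neighbouring days in the order of levels overlapped, except that 5 dpi lay above all libraries of 6 dpi. Its mean over 3, 4 and 5 dpi was 1.36-fold that over 1 and 2 dpi (0.45, SE 0.16, adjusted p = 0.11), and over the time course the adjusted p was 0.28. DESeq2 called the first of these, as did edgeR without 3 dpi replicate 2 (adjusted p = 0.049).

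Itga8 encodes α8, which with β1 binds RGD ligands such as nephronectin and marks some mesenchymal cells (GRCm38 chr2:12106632-12301922, minus strand). Its level was 3.70 to 17.4 CPM, with the libraries of every day spread so widely that all days overlapped with their neighbours in level. The adjusted p over the time course was 0.64, and the difference between 3 to 5 and 1 to 2 dpi was -0.67 (log2, SE 0.36, adjusted p = 0.30). An exon of Itga8 overlaps the gene E030013I19Rik on the opposite strand, and whether the counting used strand is not given in the sources used here.

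Itgbl1 encodes a secreted protein with integrin β-like EGF repeats, which lacks the parts that pair with α subunits (GRCm38 chr14:123659971-123975618, plus strand). It was at 10.5, 32.7 and 33.4 CPM at 1 dpi and at 75.0, 46.2 and 52.5 CPM at 2 dpi, without overlap. Later it ranged from 11.4 to 77.8 CPM at 3 dpi, 34.2 to 54.6 CPM at 4 dpi and 36.4 to 77.8 CPM at 6 dpi, with 57.5 CPM at 5 dpi. The difference between 2 and 1 dpi was 1.17 (log2, SE 0.50, adjusted p = 0.59), and the one between 6 and 1 dpi was 1.03 (SE 0.50, adjusted p = 0.19). None of the 10 genes was called between 1 and 2 dpi by edgeR, against 0.178% of all genes, and 2 had an unadjusted p under 0.05. DESeq2 called none of the 10 either, and 104 genes in all. Itgbl1 was called by edgeR when genes were kept from 1 count on (adjusted p = 0.015). The groups did not overlap in this direction for 8.05% of genes.

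**Figure D4:**
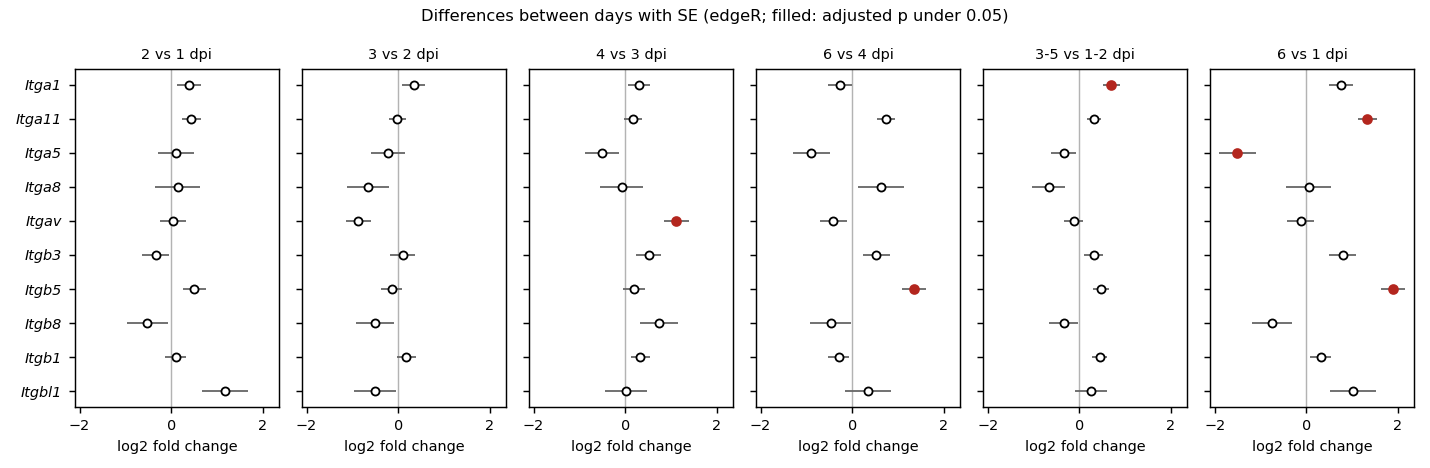
Log2 fold change (x axis) with its SE for the 10 genes (y axis) in 6 comparisons of days by edgeR; filled points have an adjusted p under 0.05. The filled points are Itgav at 4 against 3 dpi, Itgb5 at 6 against 4 dpi, Itga1 at 3-5 against 1-2 dpi, and Itga11, Itga5 and Itgb5 at 6 against 1 dpi; comparisons that share a day are not independent.

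Across the 17 libraries the log2 levels of Itga11 and Itgb5 had a Pearson correlation of 0.87, the highest of any pair of members. It was 0.78 for Itga1 with Itgb1, 0.74 for Itgb3 with Itgb5 and -0.70 for Itga5 with Itga11. Among 8919 genes with a mean of at least 100 counts, the closest to Itgb5 were Cst6 (0.93), a cysteine protease inhibitor, Scrn1 (0.92) and Ssc5d (0.92). Those closest to Itga11 were Mxra7 (0.89), Tmem119 (0.89) and Itgb5, and those closest to Itga5 were Rnf122 (0.93), the hyaluronan receptor gene Layn (0.88) and the metalloproteinase inhibitor gene Timp1 (0.86). For Itga1 the closest were Serinc5 (0.88), Lrrc17 (0.85) and P4ha3 (0.85), a subunit of the collagen prolyl hydroxylase, and for Itgav they were Cdc42 (0.87), Usp9x (0.87) and Cul1 (0.86). The closest gene was Atp5j for Itgb1 (0.86), Dact3 for Itgb3 (0.88), Abca2 for Itga8 (0.76) and 1110065P20Rik for Itgbl1 (0.83), and Itgb8 had too few counts for this search. These values describe the libraries, whose days, depth and mitochondrial share the genes have in common.

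Of the 18 remaining integrin genes, 11 had enough counts to be tested. Over the time course 2 of the 11 were called, against 15.0% of all genes: Itga7, the laminin-binding subunit of muscle, and Itgb2, the leukocyte β2. At 6 against 1 dpi Itga7 was higher by a log2 fold change of 2.00 (SE 0.34, adjusted p = 9.7e-04), and Itga2b, given above, was the other gene of this list called. The mural and cardiomyocyte markers were higher at 6 dpi too, as given above. The summed leukocyte markers were highest in 3 dpi replicates 3 and 4 (239 and 228 CPM). They were 8.21 to 87.6 CPM in all other libraries, with 52.8 and 42.8 CPM in 3 dpi replicates 1 and 2. Their part in these values was not tested.

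Of 21 genes for integrin ligands and TGF-β proteins, 7 rose and 1 fell between 1-2 and 3-5 dpi, in a comparison that called 7.48% of all genes, and their median change was 0.73 (log2) against 0.28 for the 10 integrin genes and -0.00072 for all genes. Fn1 rose by 3.21 (SE 0.26, adjusted p = 2.4e-07), from 162 to 418 CPM at 1 and 2 dpi to 1576 to 3965 CPM at 3 to 5 dpi. Postn, which encodes periostin, rose by 2.03 (SE 0.25, adjusted p = 2.5e-05) and Col1a1, which encodes the α1 chain of collagen I and drives the reporter, by 1.64 (SE 0.27, adjusted p = 6.1e-04). Lrrc32, whose product GARP holds latent TGF-β on the cell surface, fell by 1.32 on the log2 scale (SE 0.21, adjusted p = 4.1e-04). Between 4 and 6 dpi Spp1 (osteopontin, an αv ligand) was the 1 ligand gene called. It fell by 2.58 on the log2 scale (SE 0.57, adjusted p = 0.048), from 53.2 to 171 CPM to 10.3 to 33.6 CPM. At 6 against 1 dpi 7 ligand genes rose and 1, Thbs1, fell, against 12.1% of all genes called, with a median of 0.51 against 0.54 for the 10 integrin genes and 0.03 for all genes. Whether ligand genes were called more often than receptor genes was not tested.

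Of 26 genes of the adhesion complex that joins integrins to actin, 25 were tested and 5 varied over the time course (Nedd9, Tns1, Lims1, Rsu1 and Actn1), against 15.0% of all genes. The actin crosslinker gene Actn1 rose by 1.07 (log2, SE 0.22, adjusted p = 0.0043) between 1-2 and 3-5 dpi and was the 1 gene of this list called there. At 6 against 1 dpi the tensin gene Tns1 was higher (0.85, SE 0.21, adjusted p = 0.013) and Lims1, which encodes the PINCH adaptor, was lower (-0.73, SE 0.23, adjusted p = 0.041). The comparisons of 3-5 with 1-2 dpi and of 6 with 1 dpi share the 1 dpi libraries, so they do not repeat each other independently.

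**Figure D5:**
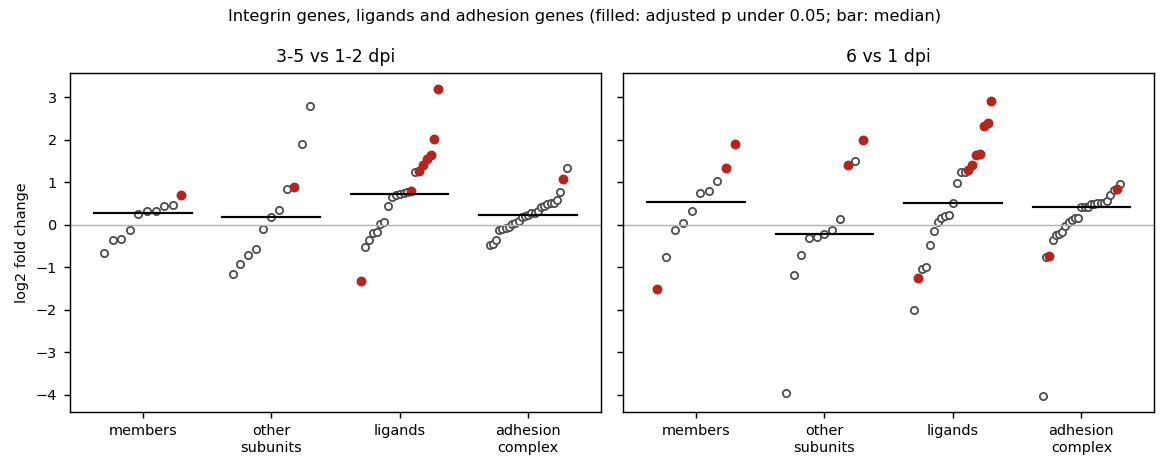
Log2 fold change (y axis) of each tested gene in 4 lists (x axis) at 3-5 against 1-2 dpi (left) and 6 against 1 dpi (right); filled points have an adjusted p under 0.05 by edgeR and the bar is the list's median. The ligand genes reach 3.21 (Fn1) on the left, while 1 of the 10 integrin genes is filled on the left and 3 on the right.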

How the data were processed

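Bulk MARS-seq, a 3′-end protocol that amplifies poly-A RNA linearly, was performed by the authors on sorted CFs of 17 samples. Per the labels and the study's methods, reads were demultiplexed with bcl2fastq, aligned to the mouse genome mm10 with STAR and counted per gene with featureCounts on an Ensembl annotation. The deposited values are whole-number counts per gene, not normalized, and whether molecular identifiers were used in counting is not given in the sources used here.

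Samples were grouped by day from their titles. A gene was kept if 3 or more libraries held 10 or more of its counts (14030), libraries were scaled by TMM, and all libraries were fitted together with 1 mean per day in edgeR 4.0.16 (quasi-likelihood test, R 4.3.3). The reported changes use an adjusted p (Benjamini-Hochberg over all tested genes) under 0.05. Log2 levels used a prior count of 2. The mean over 3, 4 and 5 dpi was compared with the mean over 1 and 2 dpi by a contrast of day means. The authors' methods used DESeq2, run here as an alternative (version 1.42.0). The other alternatives were DESeq2 size factors, upper-quartile scaling, other count filters, a robust spread, a replicate block, and fits without a library or to subsets of libraries. Log2 levels of 17 libraries were correlated for genes with a mean of at least 100 counts. The fit was tested on simulated counts for 3-5 against 1-2 dpi, with 50 genes for each size of change. It called 50% of rises and 36% of falls of 1 on the log2 scale. Of those of 2 it called 98% and 92%. A gene not called can therefore still have changed. Gene positions came from GENCODE on GRCm38, another release than the one used for counting.

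The members, gene lists and tests were chosen with earlier results of these data known. The text names all 10 members. The genes closest to a member were those of the highest Pearson correlation. From each list the text names up to 3 called genes of the largest rise and fall, with further called genes of the lists named after their values were seen. PCR and amplification make counts other than independent molecules, so limits from counts cover counting error only.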

Additional observations from a re-analysis of the deposited data

Results flagged for a closer look

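Counts of Itga5 per 100 counts of Itgb1 stood apart in 1 library of 3 dpi. The value was 12.6 in 3 dpi replicate 2 and 4.21 to 4.87 in the other 3 libraries of that day, and the gap to the nearest of these took up 0.921 of the span of the 4 values, more than the 95% limit of Dixon's test. This library also held the highest Itga5 level of the 17. The check was made on 16 measures at 3 dpi, of which chance alone flags about 0.8, since it flags about 1 in 20.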

How the results depend on the processing

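The number of the 10 integrin genes called was 3 over the whole time course, 0 at 2 against 1 dpi, 0 at 3 against 2 dpi, 1 at 4 against 3 dpi, 1 at 6 against 4 dpi, 1 at 3-5 against 1-2 dpi and 3 at 6 against 1 dpi. DESeq2 in place of edgeR gave 6 over the time course, 1 at 3 against 2, 2 at 6 against 4, 2 at 3-5 against 1-2 and 5 at 6 against 1 dpi. Keeping every gene with a count gave 5 over the time course, and 1 each at 2 against 1 and 3 against 2 dpi. Without the 5 dpi library the time course gave 5, and with only libraries of more Y-linked than Xist counts it gave 0, as did 3-5 against 1-2 dpi. Fits to the days compared alone gave 0 at 4 against 3 and at 6 against 4 dpi, and libraries with a mitochondrial share above 1% gave 0 at 6 against 4 dpi. Leaving out 1 library in turn gave 2 to 5 over the time course, 0 to 1 at 3 against 2 and at 4 against 3, 0 to 2 at 6 against 4 and at 3-5 against 1-2, and 2 to 5 at 6 against 1 dpi. Itgb5 and Itga11 at 6 against 1 dpi passed under all 27 alternatives run for them.

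Over all genes, the calls in the order just given (time course, 2 against 1, 3 against 2, 4 against 3, 6 against 4, 3-5 against 1-2, 6 against 1 dpi) were 2099, 25, 412, 380, 72, 1050 and 1700. DESeq2 gave 3757, 104, 1042, 879 and 807 in the first 5, and keeping every gene with a count gave 3729, 153, 980, 866 and 882. A minimum of 10 counts in every library gave 10 at 2 against 1 and 140 at 6 against 4 dpi. The days compared alone gave 63, 252, 125 and 14 in the 4 comparisons of neighbouring days. Y-linked libraries gave 459 over the time course and 8 at 2 against 1 dpi. Libraries with a mitochondrial share above 1% gave 508 over the time course, 2 at 6 against 4, 575 at 3-5 against 1-2 and 292 at 6 against 1 dpi, and leaving out the 3 dpi libraries gave 292 at 6 against 4 dpi. Leaving out 1 library gave 1307 to 3466, 13 to 32, 46 to 734, 126 to 722, 3 to 1402, 780 to 1601 and 763 to 2577. The causes were not tested.

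The replicate numbers did not pair the libraries. Deviations from the day means correlated by 0.01 on average over 30 pairs of the same number (from -0.11 to 0.20), and 4 of 16 libraries correlated best with their own number. With a replicate block the integrin genes called were 3 over the time course, 0 at 4 against 3, 1 at 6 against 4, 0 at 3-5 against 1-2 and 3 at 6 against 1 dpi, and the calls over all genes were 1494, 21, 174, 243, 28, 885 and 1509. Of those over the time course, Itgb3 was no longer called (adjusted p = 0.10) and Itga5 was (0.033), and the calls of Itgav at 4 against 3 dpi (1.14, adjusted p = 0.058) and Itga1 at 3-5 against 1-2 dpi (0.71, adjusted p = 0.058) were lost. Itgbl1 at 3-5 against 1-2 dpi turned to -0.056 under the block.

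Differences that changed sign were all among those not called. Itgb8 at 2 against 1 dpi was 0.29 in the Y-linked libraries, Itga11 at 3 against 2 dpi was 0.00050 with DESeq2 size factors, and Itgbl1 at 4 against 3 dpi was -0.0062 with every gene kept. In libraries with a mitochondrial share above 1%, Itgav was 0.20 at 6 against 4, 0.25 at 3-5 against 1-2 and 0.47 at 6 against 1 dpi, and Itga8 was -0.22 at 6 against 1 dpi. Itgav at 3-5 against 1-2 dpi was 0.22 without the 3 dpi libraries. Leaving out 1 library gave these ranges at 2 against 1 dpi: -0.19 to 0.33 for Itga5, -0.15 to 0.57 for Itga8, -0.090 to 0.21 for Itgav, -0.0045 to 0.21 for Itgb1, -0.50 to 0.030 for Itgb3 and -0.83 to 0.29 for Itgb8. At 3 against 2 dpi they were -0.67 to 0.059 for Itga5, -0.14 to 0.084 for Itga11 and -0.25 to 0.018 for Itgb5. At 4 against 3 dpi they were -0.56 to 0.27 for Itga8 and -0.29 to 0.54 for Itgbl1, and at 6 against 4 dpi -0.060 to 0.61 for Itgbl1. At 3-5 against 1-2 dpi the range was -0.51 to 0.051 for Itgb8, and at 6 against 1 dpi it was -0.25 to 0.46 for Itga8, -0.53 to 0.17 for Itgav and -1.07 to 0.046 for Itgb8.

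The comparison of 6 with 1 dpi, the limit on the mitochondrial share and the omission of the 3 dpi libraries were chosen after seeing the data. Libraries with more Y-linked counts hold none of 4 or 6 dpi and gave no value for comparisons with these days, and those with a mitochondrial share above 1% hold no library of 3 or 5 dpi and 1 of 6 dpi, so they gave none for 3 against 2 and 4 against 3 dpi. The single library of 5 dpi has no replicate check. Depth limits precision most for Itgb8, with 40 to 148 counts per library.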
